A study of Caenorhabditis elegans with 2 samples.

Results

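Below the peaks that passed the reproducibility threshold in a worm ChIP-seq experiment lies a tail of weaker regions, and 1007 of the strongest of these, away from protein-coding promoters, are described here. They were selected on pooled signal. From the pooled list of 30000 regions, the 28470 with no summit within 100 bp of a summit that passed the irreproducible discovery rate (IDR) threshold were ranked by the authors' signal value. As many as there are IDR peaks, 1550, were kept, and 543 of these were set aside because their summit lay from 500 bp upstream to 100 bp downstream of an annotated protein-coding gene start. The remaining 1007 regions formed 971 sites after overlapping regions were merged, and 72 of them shared a site. The other 22389 pooled regions away from promoters, called lower-ranked below, and the 1228 IDR peaks away from promoters serve as comparisons.

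The experiment mapped the protein of B0261.1, listed in the annotation as vep-1 and described there as a Myb-like domain-containing protein. Worms of strain OP662, with the genotype unc-119(tm4063) III; wgIs662, carried B0261.1 with GFP and FLAG at its C terminus. Mixed-sex whole young adults were taken 64 hours after release of starved first-stage larvae, and an anti-GFP antibody was used, although the antibody field of the labels names B0261.1. There was 1 group of 2 biological replicates, numbered 1 and 3, so no conditions could be compared. The labels do not name the promoter of the transgene, whole animals mix all tissues, and control libraries were not analysed here.

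Chromatin immunoprecipitation enriches DNA that a protein touches directly or through partners, and regions under a reproducibility threshold can mix weak binding with open or highly transcribed chromatin. In C. elegans many annotated gene starts are trans-splice sites, so a true promoter can lie further upstream than the annotation shows. Worm genes are closely packed, so the end of one gene can also lie near the start of the next. Small noncoding genes, such as those of tRNAs, snoRNAs, which guide RNA modification, and snRNAs, which act in splicing, often lie in introns or between genes.

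The sequences that recur among these regions are shown first. The choice of regions did not use them, but they were themselves picked from these same regions, so they serve as description only. Several of the 6-base sequences more frequent within 50 bp of the summits than at lower-ranked regions overlap in the 10-base sequence GAGACGCAGA. The strongest sites that hold it are given in build ce11, from 50 bp on each side of the summit, with that sequence or its reverse complement in capitals. The first lay downstream of K04C2.2 (chrIII:6895325-6895425, minus strand), the second upstream of nhr-17 (chrX:12670561-12670661, plus strand) and the third upstream of cebp-1 (chrX:1454527-1454627, plus strand). The next lay upstream of rho-1 (chrIV:16492424-16492524, plus strand) and downstream of Y53F4B.9 (chrII:15004657-15004757, minus strand). The last of these lay in introns of zfp-1 (chrIII:8802056-8802156, minus strand) and Y43F8B.2 (chrV:19529381-19529481, minus strand).
K04C2.2: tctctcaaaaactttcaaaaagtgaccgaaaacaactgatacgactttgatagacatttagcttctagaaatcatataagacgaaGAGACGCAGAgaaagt
nhr-17: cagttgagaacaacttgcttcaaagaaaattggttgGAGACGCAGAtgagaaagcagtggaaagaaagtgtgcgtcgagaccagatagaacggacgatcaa
cebp-1: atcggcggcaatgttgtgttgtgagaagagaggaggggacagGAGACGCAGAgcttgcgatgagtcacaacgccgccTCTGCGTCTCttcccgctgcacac
rho-1: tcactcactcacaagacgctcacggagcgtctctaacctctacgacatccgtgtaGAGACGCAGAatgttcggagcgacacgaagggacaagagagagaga
Y53F4B.9: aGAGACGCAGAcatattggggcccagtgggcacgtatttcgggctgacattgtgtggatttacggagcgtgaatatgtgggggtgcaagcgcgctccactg
zfp-1: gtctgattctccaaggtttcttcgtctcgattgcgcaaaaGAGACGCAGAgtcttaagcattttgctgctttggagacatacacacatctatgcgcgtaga
Y43F8B.2: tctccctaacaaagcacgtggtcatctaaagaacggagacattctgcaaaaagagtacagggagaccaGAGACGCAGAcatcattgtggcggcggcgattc
Of these windows, that near cebp-1, a gene of a CCAAT/enhancer-binding protein homologue, held 2 copies in opposite orientation.

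The site near rho-1 also lay 98 bp from an unclassified noncoding RNA gene, and 4 further sites at noncoding genes are shown next. The windows below are on the plus strand, and capitals mark a match to the B box consensus GWTCRANNC on either strand, the internal promoter element of tRNA genes. The first summit lay 1 bp from T10B9.t1, a tRNA-Lys gene in an intron of ZK1321.4 (chrII:9773553-9773753). The second lay 24 bp from the snoRNA gene Y67A10A.14 (chrIV:14327095-14327195), and the third inside the snoRNA gene C18A3.12 (chrII:5701612-5701712). The fourth lay in the unclassified noncoding gene Y81B9A.5 (chrX:9191851-9191951). No match was found in the windows at Y67A10A.14 and C18A3.12.
T10B9.t1: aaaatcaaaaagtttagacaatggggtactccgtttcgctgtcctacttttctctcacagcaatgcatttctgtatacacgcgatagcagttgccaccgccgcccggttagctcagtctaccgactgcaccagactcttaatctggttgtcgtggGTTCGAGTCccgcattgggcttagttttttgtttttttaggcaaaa
Y67A10A.14: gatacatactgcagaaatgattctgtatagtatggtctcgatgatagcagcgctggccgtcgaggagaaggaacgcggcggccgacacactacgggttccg
C18A3.12: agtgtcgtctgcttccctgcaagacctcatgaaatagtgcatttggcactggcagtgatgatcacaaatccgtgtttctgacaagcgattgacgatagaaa
Y81B9A.5: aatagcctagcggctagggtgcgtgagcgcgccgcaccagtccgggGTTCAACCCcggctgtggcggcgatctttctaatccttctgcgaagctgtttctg

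Many exonic regions lay at gene ends, where AATAAA, the polyadenylation signal that marks where a transcript is cut, is found. For the strongest such sites with AATAAA within the searched window, 30 bases around it are given on the strand of the gene, with AATAAA in capitals. They belong to pigq-1 (chrIV:11146106-11146135, minus strand), osta-2 (chrII:5712317-5712346, plus strand), lap-2 (chrV:13046411-13046440, plus strand) and C53D6.8 (chrIV:9001070-9001099, minus strand).
pigq-1: gttgtatatgaaAATAAAattttgccaatt
osta-2: cccagaaatggaAATAAAcattttcgaact
lap-2: ggctccactttgAATAAAtagctgaaattc
C53D6.8: ttcatgaactcaAATAAActtttgactttc

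The pooled signal that chose the regions was low and narrow in range. It had a median of 123, with quartiles of 108 and 144, a lowest value of 98.31 and a highest of 864. The first region left out that was away from promoters had 98.28, so nothing in the signal separates the last region kept from the next one. In all, 821 regions were under 150 and 6 were above 200. The weakest IDR peak had 179, and 21 of the 1007 regions were above it. Every one of the 1007 carried the same −log10 q-value, 3.86, which was the highest in the pooled list. The deposited regions were 484 bp wide in 752 cases, and widths ran from 121 to 1931 bp.

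Intergenic positions were the most frequent. A region was called noncoding where its summit lay within 100 bp of a noncoding gene, and otherwise exonic, intronic or intergenic by the protein-coding annotation. Intergenic summits numbered 423 (42.0%, 95% Wilson interval 39.0 to 45.1%), intronic 228 (22.6%, 20.2 to 25.3%), exonic 191 (19.0%, 16.7 to 21.5%) and noncoding 165 (16.4%, 14.2 to 18.8%). These intervals cover the counting of regions only, since the lists give no read depth. Among the lower-ranked regions 25.2% were intergenic, 33.2% intronic, 35.4% exonic and 6.16% noncoding. Among IDR peaks away from promoters 53.4% were noncoding, 26.9% intergenic, 14.2% intronic and 5.54% exonic. Of all summits, the next-ranked regions thus held a higher share of intergenic ones than either neighbour in rank. Their shares of noncoding, exonic and intronic summits lay between the values of the other sets. The noncoding class was assigned first and took 656 of the 1228 IDR peaks, which lowers the share left for other places. Of the other IDR peaks, 330 were intergenic, 174 intronic and 68 exonic. Outside noncoding genes, intergenic positions were thus the most frequent at IDR peaks as well. Their share of the summits left was larger there than among the next-ranked regions. The order of next-ranked regions and IDR peaks in intergenic share was thus reversed once noncoding summits were left out. No test across regions was made, because regions of one list are not replicates.

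The same rule was applied to each replicate's own list, which gave 1180 regions in replicate 1 and 1074 in replicate 3. The intergenic share was 32.5% in replicate 1 and 39.3% in replicate 3 (35.9% ± 4.83, SD, n = 2), against 26.6% and 26.2% of the lower-ranked regions of the same lists. The exonic share was 25.1% and 20.1% (22.6% ± 3.52, SD, n = 2), against 35.6% and 33.8%. Noncoding summits made up 20.5% and 18.3% (19.4% ± 1.53, SD, n = 2), against 6.0% and 6.05%. Intronic summits made up 21.9% and 22.3% (22.1% ± 0.215, SD, n = 2), against 31.8% and 34.0%. In both replicates each share lay on the same side of its own list's lower-ranked regions as in the pooled list. The pooled intergenic share was above that of either replicate alone.

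**Figure D1:**
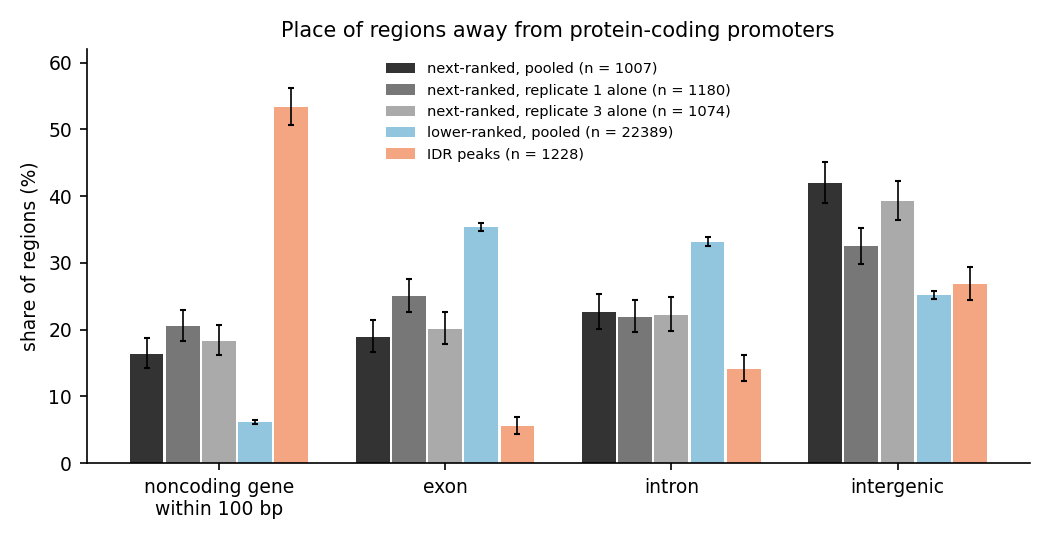
Share of regions away from promoters (vertical axis, percent, from 0) by place of the summit, for the 1007 next-ranked pooled regions, the regions chosen by the same rule in each replicate's list, the lower-ranked pooled regions and the IDR peaks; error bars are 95% Wilson intervals over regions. Intergenic summits made up 42.0% of the next-ranked regions, 25.2% of the lower-ranked ones and 26.9% of the IDR peaks. Noncoding was assigned first and took 53.4% of the IDR peaks. Of the summits left, the intergenic share was larger at IDR peaks than among the next-ranked regions.

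These shares moved along the ranking. In 6 successive steps of 1550 ranks, the share of intergenic summits among regions away from promoters was 42.0%, 36.4%, 32.3%, 29.2%, 27.4% and 25.5%. The exonic share was 19.0% in the first step, 28.7% in the second and 33.9% in the sixth. The noncoding share was 16.4%, 11.2% and 9.27% in the first 3 steps and 7.15% in the sixth. The share also found in both replicates, which follows the signal used for ranking, went from 68.2% to 20.3%.

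**Figure D2:**
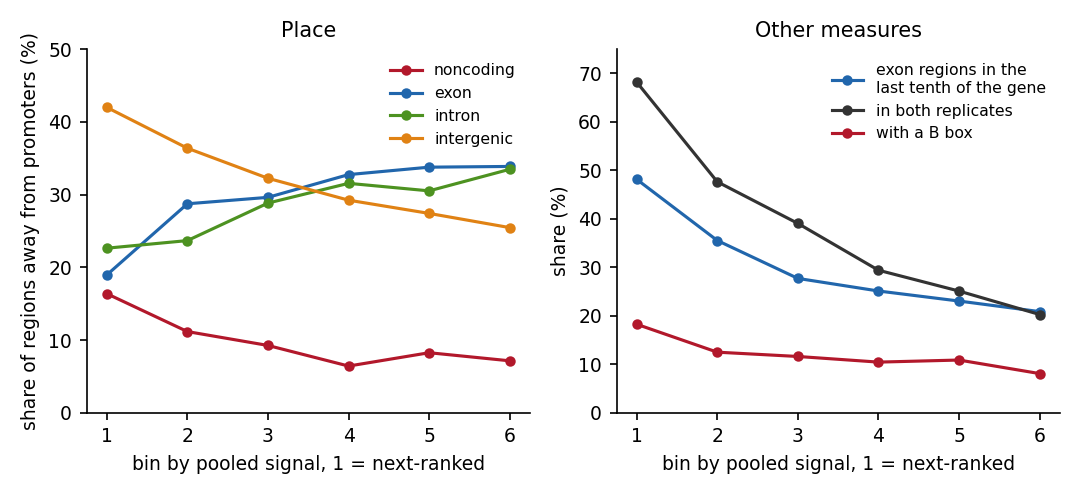
Shares (percent) in 6 successive steps of the pooled ranking, each of 1550 ranks of which only regions away from promoters are counted; step 1 holds the 1007 next-ranked regions. The left panel gives the place of the summit and the right panel the exon summits in the last 10% of the gene, the regions found in both replicates and those with a B box within 100 bp, of which the first and last steps were 48.2% and 20.9%, 68.2% and 20.3%, and 18.3% and 8.10%.

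The 423 intergenic regions lay close to genes and more often past their ends than before their starts. Their median distance to the nearest protein-coding gene was 790 bp, against 1080 bp for lower-ranked intergenic regions. The nearest gene lay on its downstream side for 243 (57.4%, against 50.2%), although the exclusion of 500 bp before each start lowers the upstream count in both sets. Within 500 bp past the end of the nearest gene lay 161 (38.1%, against 25.8%). In the replicates' own lists this share was 35.2% and 37.4%, against 23.5% and 25.8%. A further 93 lay over 2000 bp from any protein-coding gene (22.0%, against 29.7%). Up to 1000 bp upstream of a gene start, and so just outside the promoter window, lay 92 of the intergenic regions (21.7%, against 19.0%).

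The strongest intergenic regions were the following. The highest, at 8998987 on V and 2488 bp upstream of F59E11.2, had a pooled signal of 370 and 279 in replicate 3. No counterpart was found in replicate 1, and an IDR summit lay 111 bp away. A region on X at 1627349, upstream of fbxb-58, had 189 in the pooled list, 32.2 in replicate 1 and 239 in replicate 3. One on X at 16441329, downstream of nssp-91, had 187, 56.5 and 110, and one on III at 9051474, downstream of R107.5, had 185, 34.3 and 190. Of the 6 highest, 4 lay within 500 bp of an IDR summit, and the exceptions lay downstream of genes. One of them was 160 bp past oaz-1, which encodes ornithine decarboxylase antizyme, with a signal of 189 in the pooled list and 177 in replicate 3, and no summit in replicate 1. The other was 286 bp past K04C2.2, annotated as DNA polymerase V, with a signal of 187, 19.6 in replicate 1 and 163 in replicate 3. Over 500 bp from IDR summits, a set of names chosen after the values were seen, the next were hpo-38 (180, downstream by 243 bp), Y116A8A.150 (179, upstream by 790 bp), ndx-1 (178, upstream by 692 bp) and atfs-1 (178, downstream by 2513 bp), a gene of a stress-activated transcription factor.

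Exonic regions gathered at the ends of genes. Of the 191 summits in exons of protein-coding genes, 92 (48.2%, Wilson interval 41.2 to 55.2%) lay in the last 10% of the gene, against 1531 of 7929 lower-ranked exon summits (19.3%). Applied to each replicate alone, the rule gave 36.8% in replicate 1 and 46.3% in replicate 3 (41.6% ± 6.70, SD, n = 2), against 19.8% in both lists' lower-ranked regions. The share was 48.2% in the first step of 1550 ranks, 35.5% in the second, 27.7% in the third and 20.9% in the sixth. The median distance to the gene end was 287 bp, against 1279 bp, and 76 of the 191 lay within 200 bp of it (39.8%, against 12.7%). IDR peaks away from promoters also had many exon summits there. Of their 68 exon summits, 23 (33.8%, Wilson interval 23.7 to 45.7%) lay in the last 10% and 19 (27.9%) within 200 bp of the end. The place at gene ends was therefore not particular to the next-ranked regions. This division of genes was chosen after the data were seen, and the place along a gene was not used to choose the regions, apart from the promoter window.

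Many of these summits lay outside coding sequence. Of the 191, 77 were in exon sequence that is not coding (40.3%, against 16.7% of lower-ranked exon summits), and 63 of the 77 lay in the last 20% of the gene. At IDR peaks away from promoters 29.4% of exon summits were not coding. In the replicates' own lists the noncoding share of exon summits was 30.7% and 40.3% (35.5% ± 6.74, SD, n = 2), against 16.3% and 17.5%. AATAAA, on either strand, was found within 50 bp of 25 of the 92 summits in the last 10% (27.2%), close to the 26.0% at lower-ranked summits in the last 10%, and within 50 bp of 6 of the 99 others (6.06%, against 8.60%). From 500 to 1000 bp upstream of a protein-coding start, the part of that range that the promoter window leaves, lay 4 of the 92 (4.35%, against 8.69% of lower-ranked summits in the last 10%). Without the regions within 500 bp of an IDR summit, 81 of 163 exon summits lay in the last 10% (49.7%).

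**Figure D3:**
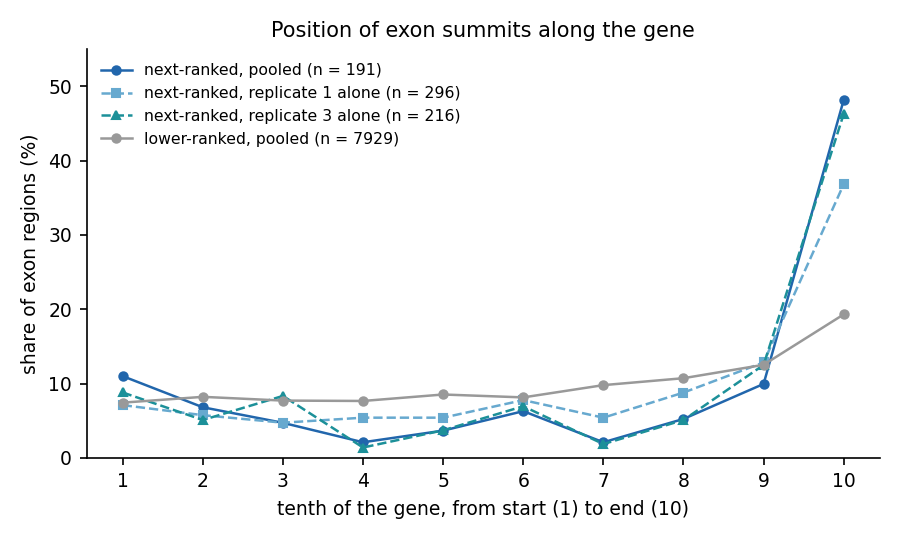
Share of exon summits (vertical axis, percent) in each 10% of the gene from its start to its end, for the 191 next-ranked pooled regions, the regions chosen by the same rule in each replicate's list and the 7929 lower-ranked pooled regions. The last 10% held 48.2%, 36.8%, 46.3% and 19.3%.

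Genes with such end regions had varied products. At R148.8, of unknown function, a summit 47 bp before the gene end had a pooled signal of 193, 72.4 in replicate 1 and 107 in replicate 3. At hrde-1, an Argonaute gene of nuclear RNA interference, a summit 65 bp before the end had 174, 15 and 183, so that it was weak in replicate 1 alone. At pigq-1 a summit 26 bp before the end had 171, 40.6 and 143. At wsp-1, a gene of actin assembly, one 45 bp before the end had 169, 25.4 and 163. At mec-17, which encodes an α-tubulin acetyltransferase, a summit in coding sequence had 164, 38.3 and 116. At osta-2, a summit had 163 in the pooled list and 133 in replicate 3, with no counterpart in replicate 1. A summit in the last 10% of mnk-1, 1184 bp before its end, had 166 in the pooled list and 171 in replicate 3, with no counterpart in replicate 1. At nra-1, one 86 bp before the end had 159, 71.3 and 129. These 8 sites were named after their values were seen. Of them, those of R148.8 and nra-1 lay 189 and 179 bp from an IDR summit. That of mnk-1 lay 1443 bp away, and the other 5 lay over 10000 bp away. The mnk-1 region, from 10541825 to 10543755 on II, also held its nearest IDR summit, at 10542162.

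Of the 6 exon sites of highest signal, R148.8 among them, 3 lay beside IDR peaks at tRNA genes. The first and second of all exon sites, in F12D9.2 on X (summit 8646674, signal 864, 242 in replicate 1) and in sur-7 on X (summit 16378322, signal 571, 279 in replicate 1), lay 215 and 241 bp from IDR peaks at tRNA genes with signals of 5952 and 4128. Neither had a counterpart in replicate 3. In stdh-1, a putative steroid dehydrogenase gene on V, a summit at 13907878 had 182, 52.8 in replicate 1 and 157 in replicate 3, and lay 159 bp before the gene end. In K11E4.1, a lipase-like gene, a summit had 177, 121 in replicate 1 and 552 in replicate 3, and an IDR peak at a tRNA gene lay 253 bp away. In F53A3.7 a summit had 174, 34.4 and 138.

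Intronic regions were spread along their genes. Among the 228, successive spans of 10% of the gene held from 8 to 30 summits, with 15 in the last. The median distance from the gene start was 2652 bp, against 2603 bp for lower-ranked intron summits. The first of these by signal, in Y55F3BR.2 on IV (summit 873437), had 478 in the pooled list and 79.5 in replicate 1, and none in replicate 3, with an IDR peak 161 bp away. In pes-4, which encodes a K homology domain protein, the summit on III at 1218680 had 427, 165 in replicate 1 and 295 in replicate 3, at 203 bp from an IDR peak at a tRNA gene. In dhs-30 the summit had 183, 37.0 and 145, and no 31-base sequence within 50 bp of it occurs only once in the genome. Far from IDR peaks, T04C10.3 had 183, 30.3 and 135, clec-260 had 179, 34.9 and 146, and irld-23 had 178, 30.8 and 149. These 3 introns had similar values, well below the first and second. With a promoter window at every coding transcript start, in place of 1 per gene, 967 regions were left, of which 203 were intronic.

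Noncoding summits numbered 165, most of them at genes of unclassified noncoding RNAs. Of these summits, 97 lay between protein-coding genes, 58 in their introns and 10 in their exons, and 24 lay near genes of more than 1 class. Unclassified noncoding RNA genes accounted for 104 regions (10.3%, against 3.91% of lower-ranked regions), 82 of which were near no other class. Small nucleolar RNA genes had 23 (2.28%, against 0.272%), at 22 of 346 genes. Small nuclear RNA genes had 20 (1.99%, against 0.121%), at 16 of 99 genes. Transfer RNA pseudogenes had 12 (1.19%, against 0.290%), at 12 of 209 genes. Transfer RNA genes had 9 (0.894%, against 0.0581%), at 9 of 612 genes, while they made up 37.5% of IDR peaks away from promoters.

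The rarer classes followed. Genes of SL RNAs, which supply the leader spliced onto many messenger RNAs, had 3 regions at 3 of 31 genes (0.298%, against 0.0179%). MicroRNA genes had 4 (0.397%, against 0.116%), long noncoding RNA genes 6 (0.596%, against 0.357%) and antisense RNA genes 3 (0.298%, against 0.161%). Genes of piRNAs, which guide silencing in the germ line, had 5 (0.497%, against 1.07%), and none of 20 rRNA genes had any. In the replicates' own lists snoRNA genes made up 2.71% and 2.33% and snRNA genes 0.847% and 1.40%. Transfer RNA genes made up 5.76% of the regions in replicate 1 and 2.33% in replicate 3, more than in the pooled list.

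Among snoRNA genes, Y67A10A.14 on IV had a signal of 223, 30.4 in replicate 1 and 205 in replicate 3, and C18A3.12 on II had 199, 30.9 and 171. The summit at Y67A10A.14 lay 113 bp from an IDR summit at a snoRNA gene. The third, Y6B3B.15, in an intron of lagr-1, a putative ceramide synthase gene, had 180, 36.6 and 146. Their order by signal differed between the replicates. Among snRNA genes, F32B5.9, in an intron of the cathepsin gene cpz-1, had 163, 40.4 and 121, and C47F8.9 had 159, 26.9 and 160. The summit at F08H9.10 lay in an exon of the small heat shock gene hsp-16.20. It had 156 and 42.1, with no counterpart in replicate 3. Among tRNA genes, Y7A5A.t2 (tRNA-Pro) had 155, 50.6 and 158. Its summit lay 80 bp from the gene and 220 bp from an IDR summit at a tRNA gene, of signal 1360. C36F7.t1 (tRNA-Gln) had 152, 36.2 and 116, and T10B9.t1 (tRNA-Lys) had 133 and 110 in replicate 3 with no summit in replicate 1. Some of these windows are not unique. Of the 31-base sequences within 50 bp, 21.1% occur once in the genome at F32B5.9 and at C36F7.t1, 39.4% at Y6B3B.15 and 69.0% at C47F8.9. At the other sites of this paragraph the share was 80.3% or more.

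The strongest sites of the other classes had the following pooled signals. The tRNA pseudogenes Y53G8B.t1, T13B5.t1 and H17B01.t2 had pooled signals of 162, 146 and 138. The summits at Y53G8B.t1 and T13B5.t1 lay 89 and 84 bp from the gene, and the former lay 204 bp from an IDR summit. The SL RNA genes sls-2.15, sls-2.10 and sls-2.5 had 161.5, 139 and 121. The microRNA genes mir-8196.1, mir-53 and mir-8196.2 had 138, 117 and 107, and the region at mir-8196.1 also lay in the long noncoding RNA gene linc-154. The long noncoding RNA genes linc-1 and linc-34 had 169 and 112. The antisense RNA genes anr-54 and F48C1.15 had 156 and 150.9, in introns of vhp-1 and let-526. The piRNA genes 21ur-6325, 21ur-14503 and 21ur-14659 had 179, 143 and 131. Their summits lay 86, 90 and 10 bp from the gene, and that at 21ur-14503 lay 238 bp from an IDR summit at a tRNA gene. Of the unclassified genes, C18A3.14 overlapped the snoRNA site above, and K02E11.13 and C17G1.9 had 192 and 179. The summit at K02E11.13 lay 28 bp from the gene and 215 bp from an IDR summit at a tRNA gene.

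A group of regions lay beside IDR peaks. Of the 1007, 147 overlapped an IDR region (14.6%, Wilson interval 12.6 to 16.9%), against 0.920% of lower-ranked regions. The rule removes only summits within 100 bp, and 149 had an IDR summit within 500 bp, at distances from 111 to 434 bp and a median of 204 bp. Of these, 97 lay from 201 to 250 bp away, and only 16 of the 1007 were found between 500 and 1000 bp, so the group stood apart in distance. Each of the 149 had a different IDR peak as its neighbour, and 148 had a lower signal than that neighbour. The neighbour lay at a tRNA gene for 41 and at a snoRNA gene for 10. The 5 regions of highest signal among the 1007, and 9 of the 10 highest, belonged to this group. In the replicates' own lists the share overlapping an IDR region was 41.9% and 26.9%. The G and C content within 50 bp of the summit had a median of 35.6% in this group and 43.6% in the 858 others. Whether these summits are separate sites or flanks of the neighbouring peak was not tested.

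**Figure D4:**
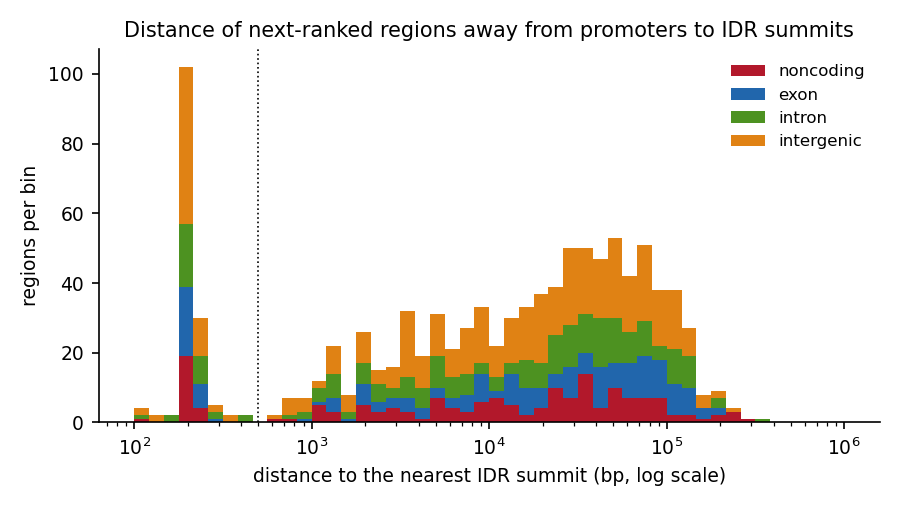
Number of next-ranked regions away from promoters per bin (vertical axis) by distance from their summit to the nearest IDR summit (horizontal axis, bp, log scale), coloured by place; the dotted line marks 500 bp. The 149 regions to its left lay from 111 to 434 bp from an IDR summit, and 580 regions lay over 10000 bp away.

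Most regions had a counterpart in each replicate's list. A summit within 100 bp was found in replicate 1 for 738 regions (73.3%, where all 28470 pooled regions without an IDR summit gave 28.2%), in replicate 3 for 925 (91.9%, against 59.1%) and in both for 687 (68.2%, against 17.2%). Neither replicate had one for 31. The pooled list was made from the reads of both replicates and the regions were chosen by its signal, so these shares describe the choice and do not show reproducibility. By place, the share in both was 71.6% for intergenic, 68.4% for intronic, 67.3% for noncoding and 61.3% for exonic regions. With summits required to lie within 50 bp, 39.0% were found in both.

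The signals in the 2 lists differ in scale and were not compared with each other. Where found, the regions had a median signal of 29.0 in replicate 1, from 10.6 to 279, and of 105 in replicate 3, from 21.5 to 642. Their median rank was 3147 of 23931 regions in replicate 1 and 2458 of 30000 in replicate 3. Among the 3100 highest of each list were 362 of the 1007 in replicate 1 and 687 in replicate 3. More of them thus ranked high in replicate 3, whose list is the longer one.

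**Figure D5:**
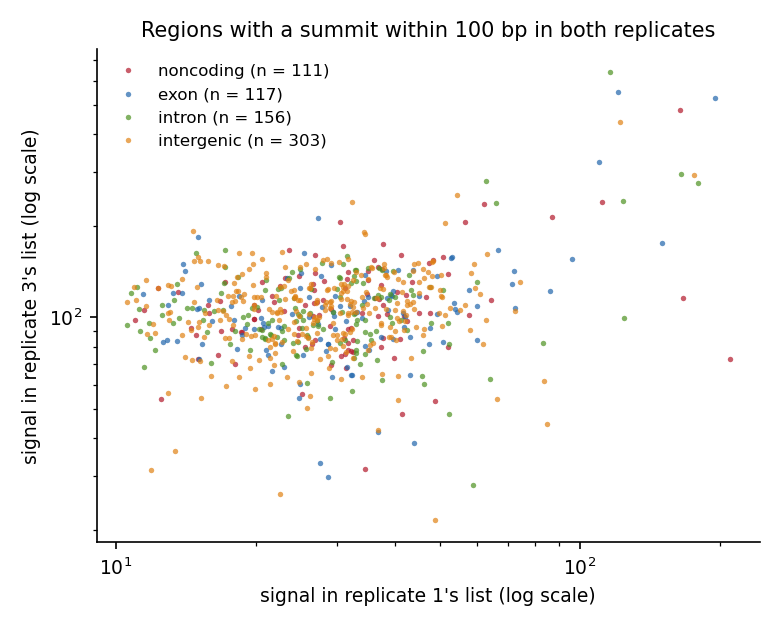
Signal in replicate 3's list (vertical axis, log scale) against signal in replicate 1's list (horizontal axis, log scale) for the 687 regions with a summit within 100 bp in both, coloured by place. The 4 places overlap across the whole range, and the values run from 10.6 to 279 in replicate 1 and from 21.5 to 642 in replicate 3 over all regions found in each list.

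Regions between genes and in introns were richer in G and C than lower-ranked regions of the same place. The median G and C content of the 101 bases around the summit was 42.6% over the 1007 regions (quartiles 35.6 and 49.5%), 39.6% over lower-ranked regions and 45.5% over IDR peaks away from promoters. In introns it was 42.6% against 36.6%, and between genes 41.6% against 37.6%, while in exons it was 41.6% against 42.6%. Every 31-base sequence of the window occurred once in the genome for 825 regions (81.9%), against 89.8% of lower-ranked regions and 59.9% of IDR peaks away from promoters. It was 97.9% in exons and 74.6% in introns. For 25 regions no such sequence was unique.

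Among 2080 sequences of 6 bases, each taken with its reverse complement, the largest differences in share from lower-ranked regions belonged to CGTCTC (11.9% of regions, against 4.59%), GAGAGA (15.4%, against 8.33%), CGCAGA (10.4%, against 3.74%), AGACGC (9.63%, against 3.06%) and AGAGAG (13.4%, against 6.85%). At IDR peaks away from promoters these shares were, in the same order, 5.78%, 14.2%, 5.46%, 6.19% and 10.1%. GAGAGA lay at 16.8% of next-ranked regions at promoters and 17.1% of IDR peaks at promoters, so it was not particular to these regions. Of the 6 sequences that hold CG among the leading 10, 5 overlap in GAGACGCAGA, the sequence in capitals in the first windows above. It lay within 50 bp of 44 summits (4.37%, Wilson interval 3.27 to 5.81%), where all 28470 pooled regions without an IDR summit gave 1.12% and lower-ranked regions away from promoters 0.817%. Because it was picked from these same regions for its difference, this share is a description and supports nothing. In the replicates' own lists, which share reads with the pooled list, it was 1.53% and 2.79% (2.16% ± 0.897, SD, n = 2), against 0.590% and 0.841%.

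The 44 sites were mostly intergenic or intronic. Intergenic regions held 25 (5.91%, against 1.40% of lower-ranked intergenic regions), introns 14 (6.14%, against 1.01%), noncoding sites 4 and exons 1. Its centre lay a median of 20.5 bp from the summit, and 30 of the 44 regions were found in both replicates. All 44 lay over 500 bp from an IDR summit, and 0 of the 149 regions beside IDR peaks held it, which allows a share of up to 2.01% by a limit of 3 counts of the total (Wilson upper limit 2.51%). Among IDR peaks the share was 4.04% at promoters and 1.30% away from them, and among next-ranked regions at promoters it was 2.95%. The nuclear genome holds it 3338 times, 2666 of them away from promoters, of which 480 (18%) had a pooled summit at most 100 bp away and 64 (2.40%) had one of the 1007 regions that close. Most copies of the sequence therefore had no region.

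The strongest site with this sequence, past the end of K04C2.2, had a signal of 187, 19.6 in replicate 1 and 163 in replicate 3. That upstream of nhr-17, a nuclear receptor gene, had 175, 23.1 and 146, and that upstream of cebp-1 had 173, 28.4 and 155. A site on I, 208 bp past nlp-40, had 171, 26.9 and 144, and its window is not printed above. The site near rho-1, a small GTPase gene, had 170, 43.4 and 130, and the intron of the zinc finger gene zfp-1 had 163, 34.1 and 130. That past Y53F4B.9 had 166, 31.6 and 156, and that in Y43F8B.2 had 162, 13.5 and 129. Their signals spread more widely in replicate 1 than in replicate 3, relative to their size. They were named after their values were seen.

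The B box consensus GWTCRANNC, searched on both strands, lay within 100 bp of 184 summits (18.3%, Wilson interval 16 to 20.8%), against 9.33% of lower-ranked regions and 56.1% of IDR peaks away from promoters. In the replicates' own lists it was 15.6% and 16.8% (16.2% ± 0.825, SD, n = 2), against 9.31% and 9.52%. By place it was 21.9% in introns (against 8.71% of lower-ranked intron regions) and 20.1% between genes (against 9.22%). At noncoding genes it was 17% (against 10.8%). In exons it was 11% (Wilson interval 7.30 to 16.2%), near the 9.74% of lower-ranked exon regions. A match of these letters is not by itself an active element.

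Protein-coding genes with a region in their body numbered 449 of 19971 (2.25%), and they held 487 of the 1007 regions. They were long, with a median of 4437 bp against 2006 bp for all protein-coding genes and 3013 bp for genes that held a lower-ranked region and none of the 1007. Of the 449 genes, 27 had more than 1 site. The kinase gene mnk-1 on II, 12624 bp long, had 4 sites, 1 in an exon and 3 in introns, with pooled signals of 166, 136, 106 and 144, and tent-5, a gene of an enzyme that lengthens poly(A) tails, had 4 intronic sites of 101 to 145. Y51A2D.13 had 3 intronic sites of 134, 112 and 163, and pqn-41, a gene of a polyglutamine-repeat protein 33612 bp long, had 3 of 107, 117 and 102. The C-type lectin gene clec-260 had 3 regions in 2 sites, of 179, 142 and 101. No region lay within 3000 bp of vep-1 or unc-119.

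Named gene lists held few regions each. Their shares of genes with a region ran from 0% to 16.7%, on both sides of the 2.25% of all protein-coding genes. The highest share was that of the vitellogenins, with 1 of 6 genes. There were none in the bodies of 72 histone, 31 major sperm protein, 8 chaperonin or 27 egl genes. Of 78 ribosomal protein genes only rpl-35 held one, 5 bp before its end, with a signal of 105, 18 in replicate 1 and 97.6 in replicate 3. Of 31 translation factor genes only eif-2alpha held one, 20 bp before its end, with 109, 24.0 and 103. Both thus lay at the last bases of the gene. Collagen genes had 2 of 177 (col-42 and col-122, 150 and 122), vitellogenins 1 of 6 (vit-6, 107), heat shock genes 2 of 24 (hsp-16.20 and hsp-110, 156 and 110), muscle genes 1 of 17 (act-4, 106), and proteasome and ubiquitin genes 2 of 38 (pbs-5 and pas-1, 121 and 102).

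Regulatory and receptor families differed in counts. The unc genes, named for movement defects, had 6 of 94, led by unc-33 (138), unc-108 (137) and unc-85 (120), and the region in unc-33 had no summit within 100 bp in either replicate and an IDR peak 234 bp away. The lin genes, named for cell lineage defects, had 4 of 47, led by lin-29 (144), lin-56 (143) and lin-42 (130). Nuclear receptor genes had 9 of 269, led by nhr-59 (166), nhr-230 (153) and nhr-119 (144). Chemoreceptor genes had 2 of 583 (str-141 and srh-2, 127 and 106) and F-box genes 2 of 322 (fbxa-66 and fbxc-17, 164 and 129). With counts this small and genes of unequal length, the lists serve as description only.

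The regions were spread over all 6 chromosomes, with 208 on X, 181 on V, 165 on III, 152 each on I and II and 149 on IV. Per Mb this was from 8.52 on IV to 12 on III. Each chromosome's share was near that of lower-ranked regions, for example 20.7% against 21.8% on X.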

How the data were processed

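ChIP-seq peak lists of 2 biological replicates, numbered 1 and 3 in the labels, were used. Per the deposited file descriptions, the authors called ranked peaks and background regions in each replicate and in both together against a control, on builds ce10 and ce11, and passed them to IDR. The aligner, the caller and the IDR threshold are not given in the sources used here, and the ce10 lists were not used. Each region carries the authors' signal value, of unstated scale and used only within its own list, and a deposited −log10 q-value. No read depth is given, so the 95% Wilson intervals reflect the number of regions alone.

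Coordinates are 1-based in ce11, the WBcel235 assembly; genes and sequence came from RefSeq (WormBase release 298). Regions were placed by their summit. In a gene overlapped by several annotations the first by start was taken. No tests were made: there is 1 group, and regions are not replicates. The members and lists were chosen with earlier results of these data known; the position in steps of 10% of a gene, the 500-bp split around IDR peaks and the 10-base sequence were chosen after the data were seen. Named were the 6 strongest sites of each place, 3 of each noncoding class and gene list, the 5 genes with the most sites and the 5 leading 6-base sequences. Sequence windows were printed only for sites outside chromosome I. The choice of regions, the promoter calls and the places were tested on simulated data with planted places. The Wilson intervals were checked against another implementation. The replicate, gene position and sequence steps were not tested in this way. Alternatives were other numbers of regions, distances and promoter windows, 1 summit per site and each replicate alone. Python 3.11.15, numpy 2.4.6, pandas 2.3.3 and matplotlib 3.10.9 were used.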

Additional observations from a re-analysis of the deposited data

How the results depend on the processing

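Of the recomputed values, 73 stayed within the counting interval of the main value, or within 1.5 times for the number of regions, and 32 did not. Keeping 775 regions in place of 1550 left 500 away from promoters, with 19.6% intronic, 18.2% overlapping an IDR region and 74.4% in both replicates. Keeping 3100 left 2054, with 13.7% noncoding, 24.0% exonic, 9.64% overlapping an IDR region, 57.7% in both replicates, 15.3% with a B box, 40.4% of exon summits in the last 10% of the gene and 2.82% with the 10-base sequence. Dropping summits within 200 bp of an IDR summit left 10.9% overlapping an IDR region. A promoter window from 200 bp upstream gave 15.8% exonic, 18.9% intronic and 49.4% intergenic. With noncoding genes within 25 bp the noncoding share was 10.9% and the intergenic 45.1%. Summits within 50 bp gave 39.0% in both replicates, and a B box window of 50 bp 8.24%. With each replicate's list alone the shares ran from 18.3 to 20.5% noncoding, 20.1 to 25.1% exonic, 32.5 to 39.3% intergenic, 26.9 to 41.9% overlapping an IDR region, 15.6 to 16.8% with a B box, 36.8 to 46.3% in the last 10% of the gene and 1.53 to 2.79% with the 10-base sequence; the share in both replicates has no value there. Over 500 bp from IDR summits 0.233% overlapped an IDR region, and where all 31-base sequences occur once 22.7% were exonic and 16% had a B box; these 2 settings were chosen after the data were seen. The causes of these changes were not tested. No paired analysis was possible because there is 1 group.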
